A study of Mus musculus with 48 samples.

Results

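Cytosolic ribosomal protein genes were followed over 24 Agilent 1-colour mRNA arrays of the brains of Tg2576 mice and wild-type (WT) C57BL/6J mice. The genes were taken by name: every array probe whose RefSeq transcript belongs to a gene called Rpl or Rps with a number and at most 1 of the letters a, x, y or l, to Rplp0, Rplp1 or Rplp2, or to Rpsa, without S6 kinases and pseudogenes. This gave 79 genes of the 19752 named on the array, on 164 of its 55681 probes, and each gene was read from the brightest of its probes (by the mean of the 24 arrays). They comprised 46 genes of the large subunit, 30 of the small subunit and the 3 stalk genes. Among the 81 coding genes of the reference whose symbols fit, Rps23 and Rpl32l had no probe by this match. Tg2576 mice carry a human APP transgene with the Swedish mutation under the hamster prion promoter, which is not confined to 1 brain region or cell type. The 8 groups were WT and Tg2576 mice of 10 or 17 months, with RNA from the cortex or from the whole brain, and each group had 3 arrays. The labels number the 3 arrays of each group as replicates. They do not say whether a cortex and a whole brain came from the same mouse, and the tissues were compared as unpaired.

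The cytosolic ribosome has a large subunit, which joins amino acids, and a small subunit, which reads the mRNA. Its proteins are made in nearly equal numbers, and their mRNAs are among the most abundant in any cell. In mammals these mRNAs typically begin with a C followed by a run of pyrimidines, the 5′ TOP motif, through which mTOR signalling and the RNA-binding protein LARP1 control their translation. In neurons the same mRNAs are also found in axons and dendrites. A microarray measures the amount of mRNA in the tissue and not its translation, and fewer cells of a type and less RNA per cell cannot be told apart in such bulk samples.

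Start-site sequences are shown for some of the genes that changed in a comparison below and for Rps6, the ribosomal target of S6 kinase, because the motif lies there. Each window runs from 10 bases before the RefSeq start to 15 bases from it (build GRCm38.p6, 5′ to 3′ on the strand of the gene). Capitals mark a run of pyrimidines that begins with C exactly at the annotated start and holds at least 4 more, and a window without capitals had no such run there.
Rplp2 (chr7:141447641-141447665, plus strand): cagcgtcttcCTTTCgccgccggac
Rpl28 (chr7:4792955-4792979, plus strand): tctcgtgtctCTCTTTCCgtctccg
Rps21 (chr2:180257369-180257393, plus strand, the upstream start of 2): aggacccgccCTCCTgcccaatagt
Rpl14 (chr9:120571507-120571531, plus strand): ggccctctctCTTCTCgctgagcgc
Rps6 (chr4:86857353-86857377, minus strand): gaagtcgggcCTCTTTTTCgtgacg
Rps7 (chr12:28635939-28635963, minus strand): cggtttccacccacctacttccgct
Rpl31 (chr1:39367841-39367865, plus strand): tcctcgcctccccgtgacccggaag
Rps4x (chrX:102189377-102189401, minus strand): gctgggcggagcaacccaggctcca
Rpl23 (chr11:97782425-97782449, minus strand): gtccggtcacgtggctgagtgggcg

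The RefSeq promoter table held 59 of the 79 genes, and 13 of these had a C and 4 or more pyrimidines exactly at an annotated start, or 22% against 3.01% of all 27025 genes in the table. The 13 include Rpl38, Rps15a and Rpl15, which were called lower with age in WT whole brain and whose windows are not shown above. Rpl8, called higher with age in Tg2576 whole brain, is not among the 13 and is not shown either, so the windows above are a selection. Whether the run goes with the direction of a change was not tested. Where the run could begin up to 5 bases to either side, 27 of the 59 had it, or 45.8% against 21.2% of all genes. The search used the strand of the gene only, and a window without capitals says only that no such run begins exactly at the annotated start. The Rpl31 window holds a run that begins before the start, and the Rps7 window holds one after it. Annotated starts can lie some bases from those used in the brain.

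No spot of any gene was saturated on any of the 24 arrays, and the brightest of the 79 probes reached 18.3% to 24.5% of the scanner's saturation value. Values below are log2 of the processed signal minus the 75th percentile of the same array, so that 0 is the brightness that 75% of probes stay under. Of the 79 genes, 77 were well above background on all 24 arrays, while Rpl39l was so on 7 arrays and Rpl10l on 1. The probes of 75 genes lay above 0 on average, and 40 were among the brightest 1% of all probes. Brightness depends on the probe as well as on the RNA, so genes are not ranked by it. Ribosomal protein genes have many processed pseudogenes, and whether a probe also binds their transcripts was not tested.

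Markers of brain regions did not follow the labels closely. The summed cortex markers (8 genes, log2 scale) were at 4.44 to 5.30 on the cortex arrays and 4.47 to 4.97 on the whole brain arrays. The summed cerebellar markers (8 genes, log2 scale) ranged from 1.77 to 4.53 over the 12 cortex arrays and from 2.78 to 5.67 over the 12 whole brain arrays, so that the tissues overlapped. WT cortex 17 months replicate 2 stood apart from the other cortices at 4.53, and Tg2576 whole brain 10 months replicates 1 and 2 had only 3.11 and 2.78. Markers of the olfactory bulb were at 4.29 to 5.34 in the 10-month-old Tg2576 cortices and 3.92 to 4.15 in those of WT mice. The probe of App, which is designed on the mouse gene, was called in none of the 4 comparisons of genotypes (limma adjusted p from 0.431 to 0.944), although in 10-month-old whole brain it was at 5.96 to 6.11 in Tg2576 and 5.77 to 5.82 in WT mice, without overlap, and whether it binds the human transgene was not tested. The array signal at the 75th percentile was 507 to 612 in 17-month-old Tg2576 whole brains, the lowest of any group, and 612 to 824 elsewhere. The 24 arrays lay on 3 slides, and each slide held only some of the groups.

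The ribosomal protein genes moved together as a block between arrays. Over the 77 genes detected everywhere, the median correlation of a pair across the 24 arrays was 0.62, and 91.7% of the 2926 pairs were above 0. The points share their scaling, so these correlations describe the arrays as much as the genes. Rps27, Rpl13a and Rplp1 followed the mean of the others most closely (r from 0.95 upward). Rpl3l and Rps2 ran against it, at -0.28 and -0.23, and Rpl7 and Rplp2 followed it weakly, at 0.11 and 0.21.

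**Figure D1:**
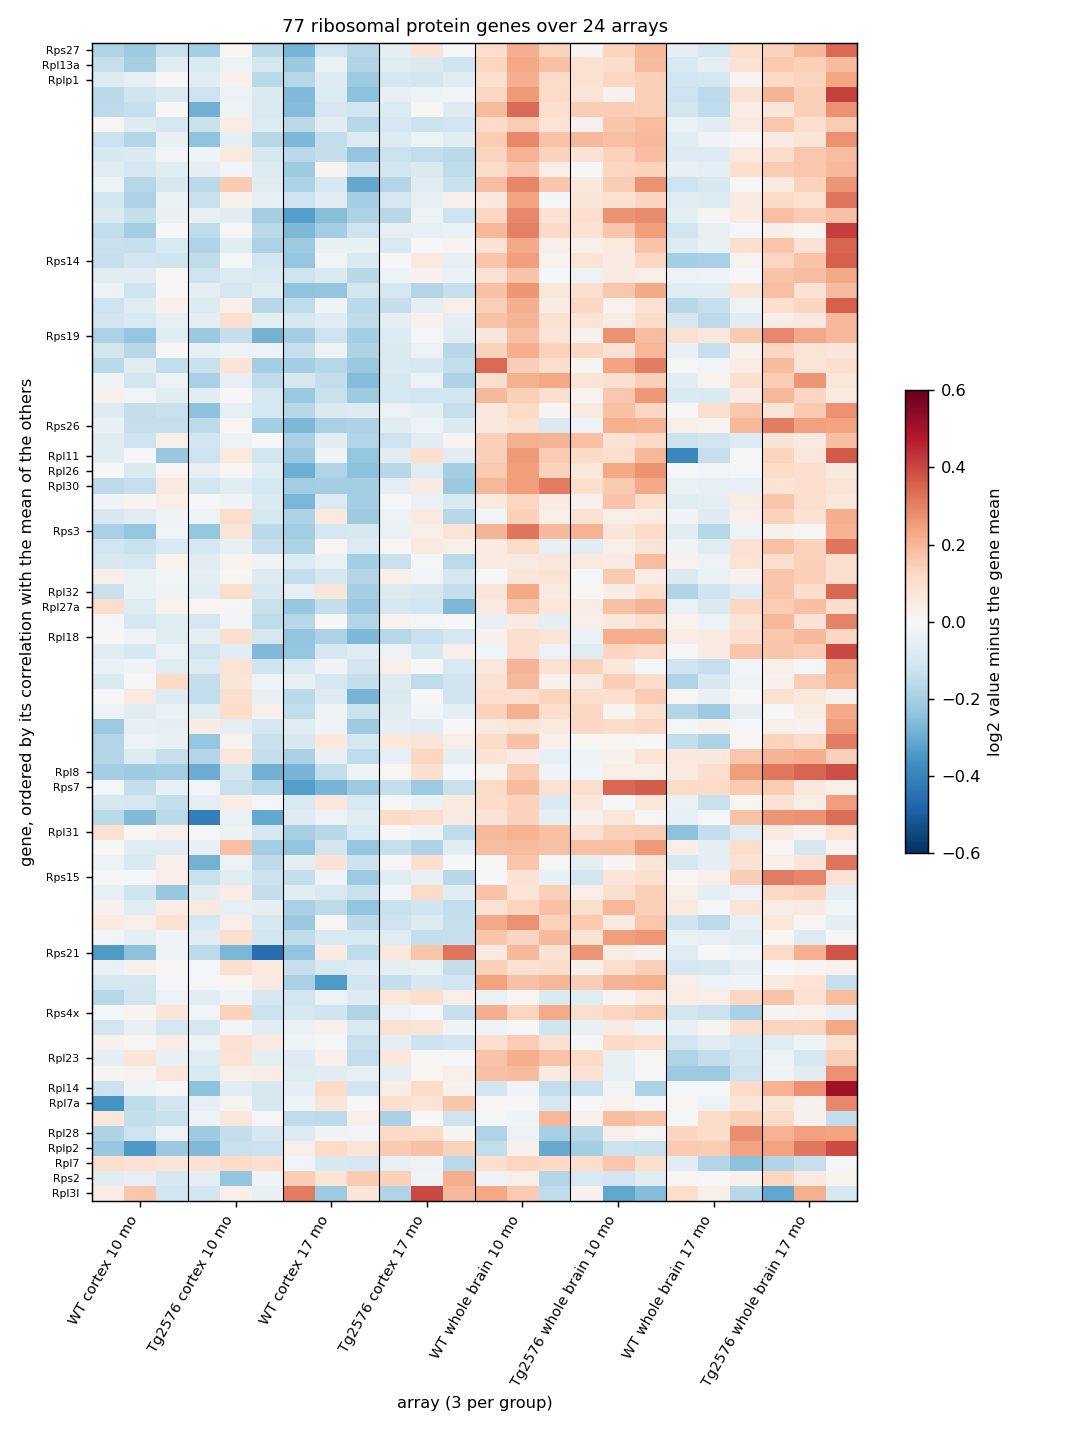
Log2 value minus the gene's own mean (colour, from -0.6 to 0.6) of the 77 ribosomal protein genes detected on all arrays (rows, ordered by correlation with the mean of the others, with some rows named) over the 24 arrays (columns, 3 per group, 75th percentile scaling). Most genes are red in whole brain and blue in cortex, the 17-month-old WT whole brains are paler than the other whole brains, and Rplp2 near the bottom is red in the 17-month-old groups.

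The mean of the 77 genes was lowest in 17-month-old WT cortex and highest in 17-month-old Tg2576 whole brain. In the cortex it was 5.92 to 5.97 on the 10-month-old WT arrays, 5.91 to 6.02 in 10-month-old Tg2576 mice, 5.86 to 5.94 in 17-month-old WT mice and 5.95 to 6.00 in 17-month-old Tg2576 mice. In whole brain it was 6.08 to 6.17 in 10-month-old WT mice, 6.06 to 6.13 in 10-month-old Tg2576 mice, 5.96 to 6.05 in 17-month-old WT mice and 6.12 to 6.20 in 17-month-old Tg2576 mice. The 17-month-old WT whole brains therefore lay below every other whole brain array, while the remaining whole brain groups overlapped. Each group of arrays enters the comparisons of genotype, age and tissue alike, so these comparisons share arrays and are not independent of each other.

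This order changed with the scaling. After quantile normalization over all 24 arrays, which gives each array the same distribution of values, the 10-month-old whole brains of both genotypes lay at 6.06 to 6.11 and the 17-month-old ones at 5.95 to 6.00, with no overlap between ages and little difference between genotypes. The 10-month-old cortices lay at 5.99 to 6.08 and the 17-month-old ones at 5.91 to 6.00, which overlapped. The bright end of the arrays moved along with the genes under the 75th percentile scaling. The 99th percentile of all probes was 6.39 to 6.42 above the 75th in 17-month-old Tg2576 whole brains, 6.25 to 6.31 in those of WT mice and 6.16 to 6.23 in the 10-month-old cortices. The part of this spread of brightness in the differences given below was not tested.

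**Figure D2:**
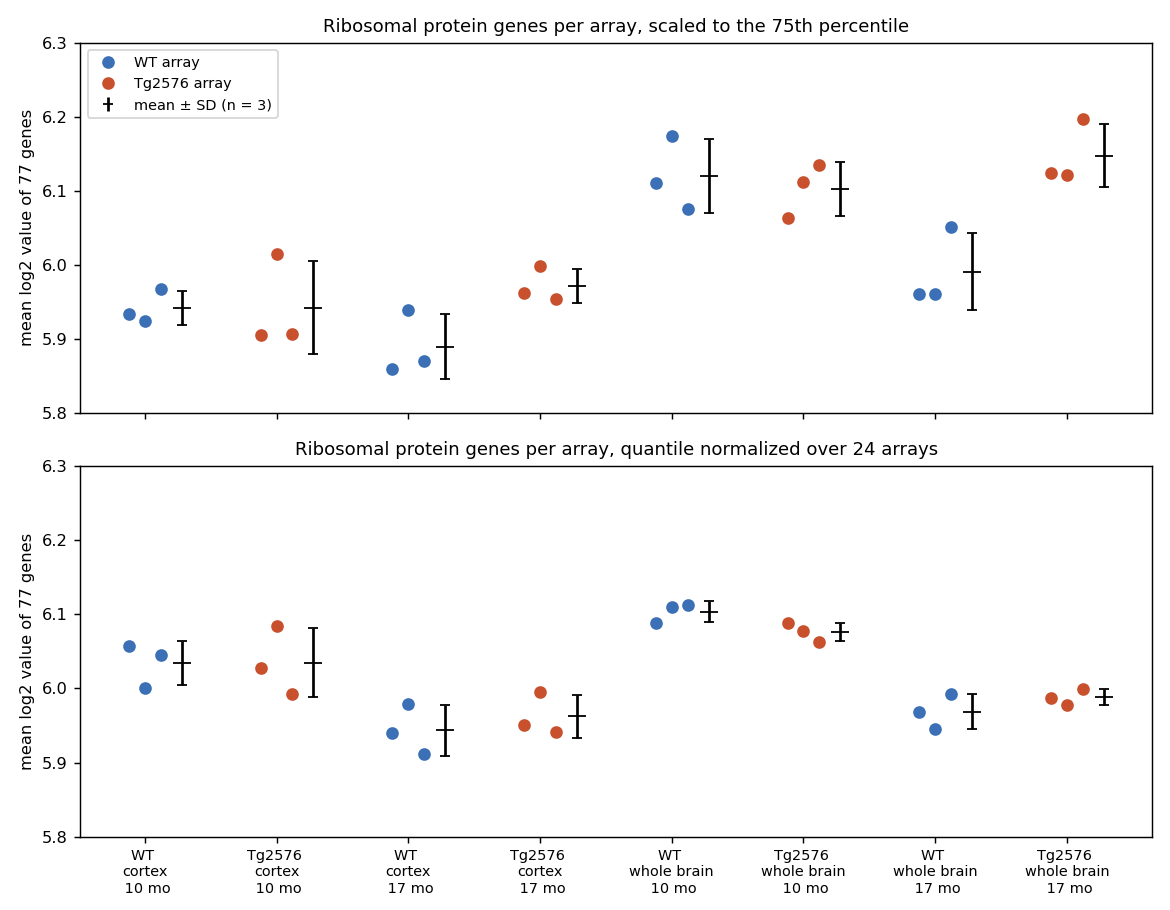
Mean log2 value of 77 ribosomal protein genes on each array (points, 3 per group, blue for WT and orange for Tg2576) with the group mean ± SD in black, under the 75th percentile scaling (upper panel) and after quantile normalization over the 24 arrays (lower panel). Under the first the 17-month-old Tg2576 whole brains are highest (6.12 to 6.20), and under the second the whole brains part by age, at 6.06 to 6.11 against 5.95 to 6.00.

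The largest set of changes came with age in the whole brains of WT mice. There 19 of 77 ribosomal protein genes tested passed limma's adjusted threshold, 18 lower and 1 higher at 17 than at 10 months, against 27.8% of all 37641 probes tested (15.2% lower and 12.7% higher). As a share, 24.7% of the ribosomal protein genes were called, which is close to that background, and the direction was the uneven part. The median log2 difference of the 77 genes was -0.15 against -0.03 for all probes, and 15 of 77 were above 0, or 19.5% against 46.1% of all probes. The 18 that fell were 10 genes of the large subunit (Rpl31, Rpl23, Rpl38, Rpl30, Rpl7, Rpl22, Rpl36a, Rpl5, Rpl15 and Rpl10a) and 8 of the small subunit (among them Rps4x, Rps3, Rps20, Rps24, Rps15a and Rps27a), by 0.20 to 0.35 on the log2 scale.

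Rpl31, a protein near the exit of the nascent chain tunnel, was at 6.34, 6.36 and 6.33 in the 10-month-old WT whole brains and at 5.91, 6.01 and 6.08 in the 17-month-old ones. The groups did not overlap, and the difference was -0.35 ± 0.07 (SE, limma adjusted p = 0.0159). All 4 probes of Rpl31 fell, by 0.23 to 0.36, and all 4 passed the threshold. Rps4x, a small subunit protein encoded on the X chromosome, was at 4.96, 4.86 and 4.96 at 10 months. It was at 4.63, 4.61 and 4.54 at 17 months, again without overlap, and differed by -0.33 ± 0.06 (SE, limma adjusted p = 0.0145). Rpl23, which can also bind the p53 regulator Mdm2, was at 6.88, 6.93 and 6.88 at 10 months and 6.53, 6.57 and 6.60 at 17 months, a difference of -0.33 ± 0.06 (SE, limma adjusted p = 0.0118). Of its 3 probes, 2 passed.

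Rpl28, a large subunit protein, was the one gene called higher in this comparison. It was at 4.56, 4.70 and 4.54 at 10 months and at 4.87, 4.85 and 5.02 at 17 months, without overlap, a difference of 0.31 ± 0.08 (SE, limma adjusted p = 0.0353). Rpl11 had the largest mean difference, -0.36, but its 17-month-old arrays spread from 6.86 to 7.24 and the probe used here did not pass (limma adjusted p = 0.0542). All 3 of its probes were lower at 17 months (-0.36 to -0.33), and 2 of them passed.

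Some measures moved beside these genes. The 10-month-old WT whole brains were all on slide 2 and the 17-month-old ones all on slide 3, so slide and age cannot be told apart here. The cerebellar markers had a median difference of 1.10, with 1 of 8 called higher, and their summed level was 3.12 to 4.18 at 10 months and 4.09 to 5.67 at 17 months. Of the blood markers measured, 2 of 5 were called lower (15.2% of all probes were), with a median of -1.29 and summed levels of 6.35 to 8.48 against 5.77 to 6.18. Summed neuron markers were at 8.47 to 8.68 at 10 months and 8.85 to 8.91 at 17 months. Oligodendrocyte markers were at 7.61 to 7.83 and 7.96 to 7.98, while astrocyte and microglia markers overlapped between the ages. The part of all these markers in the result was not tested. The calls rested on few arrays: 2 genes passed without the 17-month-old replicate 2, 4 without replicate 1 and 10 without replicate 3, and 6, 7 and 12 without the 10-month-old replicates 1, 2 and 3. With no filter on dim probes 2 passed. After quantile normalization 31 passed (28.6% of all probes), 18 of the 19 among them, with a median of -0.16.

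The same comparison of ages in the other groups gave fewer calls. In Tg2576 whole brain 3 of 78 genes were called, all higher at 17 months, against 12.1% of 37899 probes in either direction and 6.57% higher. In Tg2576 cortex 2 of 77 were called, both higher, against 10.3% of 39132 probes in either direction and 5.6% higher. In WT cortex 0 of 77 passed limma's adjusted threshold, against 4.56% of 39512 probes, although 11 had an unadjusted p under 0.05 (26% of all probes did). The methods' t-test gave 20 in WT cortex at that level, for which the share of all probes is not given. The medians were 0.03, 0.01 and -0.06 (-0.04 within slide 1 for WT cortex) under the 75th percentile scaling, and the first 2 turned negative after quantile normalization, to -0.12 in Tg2576 whole brain and -0.09 in Tg2576 cortex. Quantile normalization left 4 calls in Tg2576 whole brain (12.3% of all probes), 1 of them shared with the 3 and 3 of them lower, and 0 in Tg2576 cortex, where 9.9% of all probes were called.

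Rplp2, an acidic phosphoprotein of the stalk that recruits the translation factors to the large subunit, was higher at 17 months in each of these comparisons. In WT cortex it was at 6.71, 6.60 and 6.72 at 10 months and 6.97, 7.06 and 7.03 at 17 months. In Tg2576 cortex it was at 6.68, 6.81 and 6.81 at 10 months and 7.10, 7.12 and 7.08 at 17 months. In WT whole brain it was at 6.80, 6.97 and 6.64 at 10 months and 7.10, 7.10 and 7.18 at 17 months. In Tg2576 whole brain it was at 6.74, 6.82 and 6.81 at 10 months and 7.18, 7.26 and 7.33 at 17 months. The ages did not overlap in any of the 4 pairs, which were all read from the 1 probe of Rplp2. It passed the threshold in both Tg2576 pairs, with a difference of 0.47 ± 0.08 (SE, limma adjusted p = 0.0222), or 1.38-fold, in whole brain and 0.33 ± 0.07 (SE, limma adjusted p = 0.0401) in cortex. The WT pairs missed it narrowly, at 0.34 ± 0.07 (SE, limma adjusted p = 0.0554) in cortex and 0.32 ± 0.10 (SE, limma adjusted p = 0.0528) in whole brain. The other stalk genes gave adjusted p values of 0.0687 or more in these comparisons: Rplp0, the base of the stalk, differed by -0.07 to 0.18 and Rplp1, the partner of Rplp2, by -0.21 to 0.04.

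Rps21, a small subunit protein, was at 4.35, 4.23 and 4.05 in 10-month-old Tg2576 cortices and 4.57, 4.67 and 4.82 in 17-month-old ones. The rise was 0.48 ± 0.11 (SE, limma adjusted p = 0.0467), or 1.39-fold. These cortices lay on slide 1 at 10 months and slide 2 at 17 months, so slide and age cannot be told apart for Rps21 and Rplp2 in that pair. In Tg2576 whole brain the large subunit genes Rpl14 and Rpl8 were called with Rplp2. Rpl14 was at 6.68, 6.80 and 6.62 at 10 months and 7.02, 7.09 and 7.32 at 17 months, a difference of 0.44 ± 0.11 (SE, limma adjusted p = 0.0466). Its second probe differed by 0.14 and was not called. Rpl8, which lies close to the peptidyl transferase centre, was at 6.91, 6.96 and 6.96 at 10 months and 7.24, 7.27 and 7.31 at 17 months, a difference of 0.33 ± 0.07 (SE, limma adjusted p = 0.0362). Its second probe differed by 0.18 and was not called.

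Leaving out any single array ended both calls in Tg2576 cortex, and in Tg2576 whole brain it left 1 call without the 10-month-old replicate 1 or the 17-month-old replicate 3 and 0 otherwise. With the slide as a fixed block 0 of the genes were called in Tg2576 whole brain, and within slide 3 their median was 0.02. Blood markers were lower at 17 months in both Tg2576 pairs too (median -1.76 in cortex and -1.25 in whole brain, with 0 of 5 called), and olfactory bulb markers differed by a median of -1.70 in Tg2576 cortex. Summed neuron markers were higher at 17 months, at 8.72 to 8.84 against 8.55 to 8.67 in cortex and 8.96 to 9.05 against 8.56 to 8.81 in whole brain. Microglia markers were higher too, at 5.47 to 5.57 against 5.33 to 5.36 in cortex and 5.47 to 5.68 against 5.24 to 5.39 in whole brain. The part of these markers in the calls was not tested. In WT cortex, among genes that passed an unadjusted p alone and whose ages were separate, Rpl7a (0.22) and Rps2 (0.20) were higher at 17 months and Rpl27a (-0.22), Rpl26 (-0.22) and Rps7 (-0.21) were lower, with limma adjusted p from 0.129 to 0.187.

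**Figure D3:**
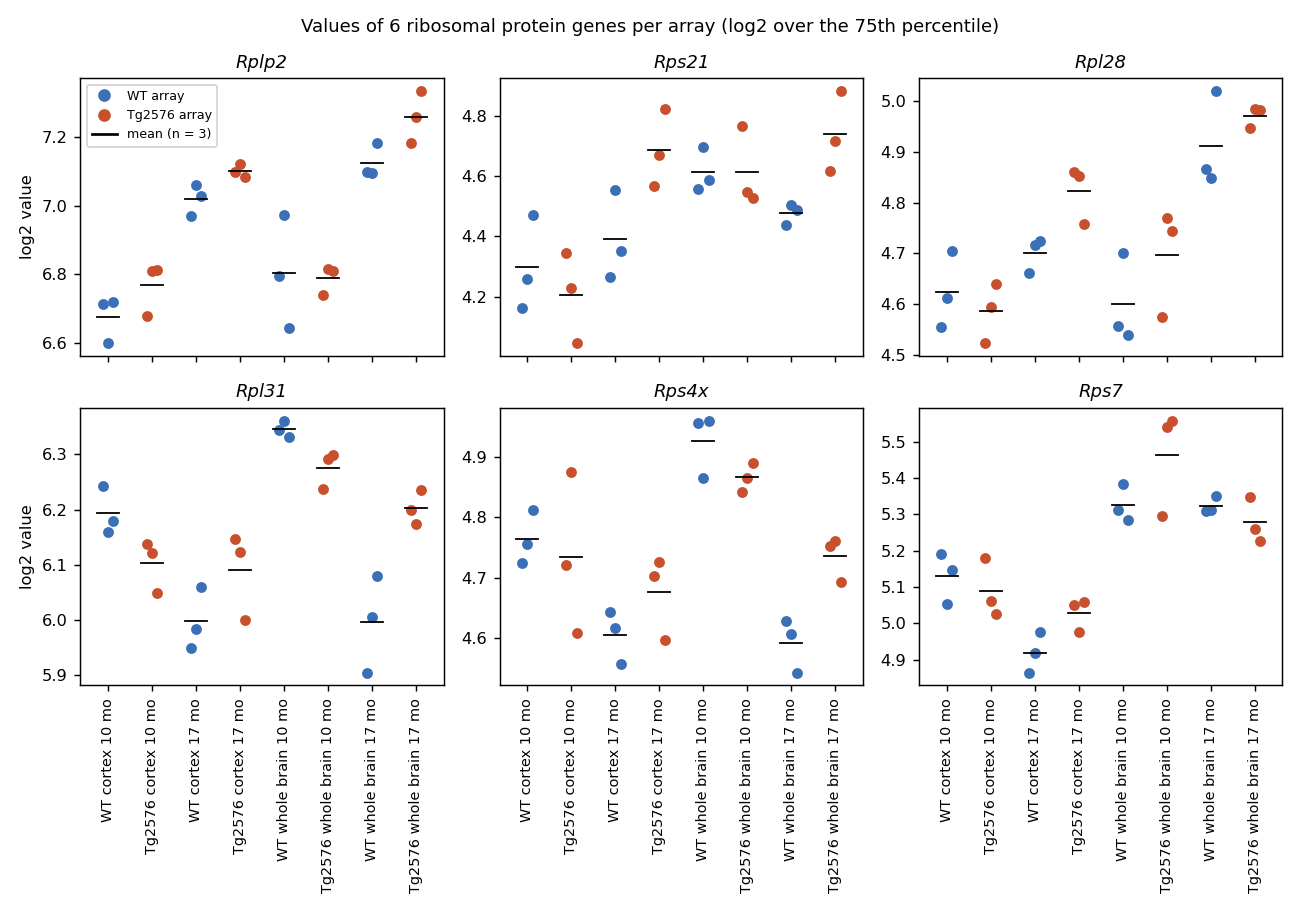
Log2 value on each array (points, 3 per group, blue for WT and orange for Tg2576) and group mean (black line) of 6 ribosomal protein genes, each panel with its own vertical range. Rplp2 is above 6.9 on every 17-month-old array, Rpl31 and Rps4x are lower in 17-month-old than in 10-month-old WT whole brain, and Rps7 is lower in WT cortex than in WT whole brain at both ages.

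The comparison of genotypes asks whether the levels of these mRNAs differed between Tg2576 and WT mice. Amyloid was not measured on these arrays, and summed markers of plaque-associated microglia overlapped between the genotypes in all 4 comparisons. The paper names different suppliers for WT and Tg2576 mice, so source and genotype cannot be told apart. None of the 77 or 78 ribosomal protein genes tested passed limma's adjusted threshold in any of the 4 comparisons, where 0% of all probes did. At 10 months the medians were -0.0052 in the cortex and -0.02 in whole brain, 0 genes had an unadjusted p under 0.05 in either (9.95% and 11.4% of all probes did), and the methods' t-test gave 2 and 3 at that level. The groups did not overlap for 7 genes in the cortex and 4 in whole brain, that is 9.09% and 5.13% of them against 17.2% and 17.6% of all probes.

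At 17 months the genes were mostly higher in Tg2576 mice before adjustment. In whole brain 72 of 77 were above 0, or 93.5% against 52.8% of all probes, with a median of 0.17 against 0.01. The groups did not overlap for 53 genes, or 68.8%, all higher in Tg2576, against 12.8% of all probes. An unadjusted p under 0.05 was found for 25 of the 77, all higher (7.15% of all probes in that direction). The methods' t-test gave 38, and the share of all probes for its counts is not given. After quantile normalization 48 of 77 were above 0 and 1 had an unadjusted p under 0.05. In the cortex 69 of 77 were above 0, or 89.6% against 52% of all probes, with a median of 0.08. The groups did not overlap for 25, or 32.5%, all higher, against 8.75% of all probes. Rps21 alone had an unadjusted p under 0.05 (5.07% of all probes did in that direction), against 12 genes by the methods' t-test. After quantile normalization 47 of 77 were above 0 in the cortex and 0 had such a p.

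Rpl11, whose free protein binds Mdm2, was at 6.86, 7.11 and 7.24 in 17-month-old WT whole brains and 7.38, 7.32 and 7.62 in Tg2576 ones (difference 0.37 ± 0.13, SE, limma adjusted p = 0.361). Rps14, a small subunit protein of the platform, was at 7.68, 7.69 and 7.91 in WT and 8.01, 8.06 and 8.24 in Tg2576 mice (0.35 ± 0.10, SE, limma adjusted p = 0.342). Rpl32 was at 6.45, 6.51 and 6.55 in WT and 6.79, 6.73 and 6.97 in Tg2576 mice (0.33 ± 0.09, SE, limma adjusted p = 0.342). In the cortex Rps21 had the largest difference, 0.30 ± 0.11 (SE, limma adjusted p = 0.519). For these 4 genes the genotypes did not overlap. Within slide 2, which held all 3 Tg2576 cortices and 1 WT cortex of 17 months, the median was 0.11, and within the same slide it was -0.06 in 10-month-old whole brain, with 1 Tg2576 array. After quantile normalization the whole brain median at 17 months shrank from 0.17 to 0.03 and that in the cortex from 0.08 to 0.02. The cerebellar markers were lower in these Tg2576 whole brains, with a median of -1.58, 0 of 8 called and summed levels of 3.12 to 3.85 against 4.09 to 5.67 in WT mice. Summed neuron markers were at 8.96 to 9.05 against 8.85 to 8.91 in WT mice, and microglia markers at 5.47 to 5.68 against 5.327 to 5.333. Oligodendrocyte markers were lower, at 7.61 to 7.88 against 7.96 to 7.98, and astrocyte markers overlapped. The part of these markers was not tested.

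Whether age acted differently in the genotypes was tested as an interaction over the 12 arrays of a tissue. None of the 78 genes tested in whole brain and 77 in cortex passed limma's adjusted threshold, where 0% of all probes did. In whole brain 25 had an unadjusted p under 0.05, all with a more positive change in Tg2576 mice (8.94% of all probes in that direction), the median was 0.18 and 72 of 78 were above 0 (52.9% of all probes were). The lowest adjusted p was 0.191, for Rpl32 and Rpl37, and the largest interactions among the 25 were 0.41 ± 0.15 (SE) for Rpl11, 0.41 ± 0.13 for Rps14 and 0.40 ± 0.11 for Rpl32. In cortex 1 gene, Rps21, had an unadjusted p under 0.05 (4.8% of all probes did in its direction), and the median was 0.09. Quantile normalization reduced the medians to 0.05 in whole brain and 0.02 in cortex. In whole brain it left 51 of 78 above 0 and 2 with an unadjusted p under 0.05. A difference between genotypes in the effect of age was therefore not shown for any of the genes.

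**Figure D4:**
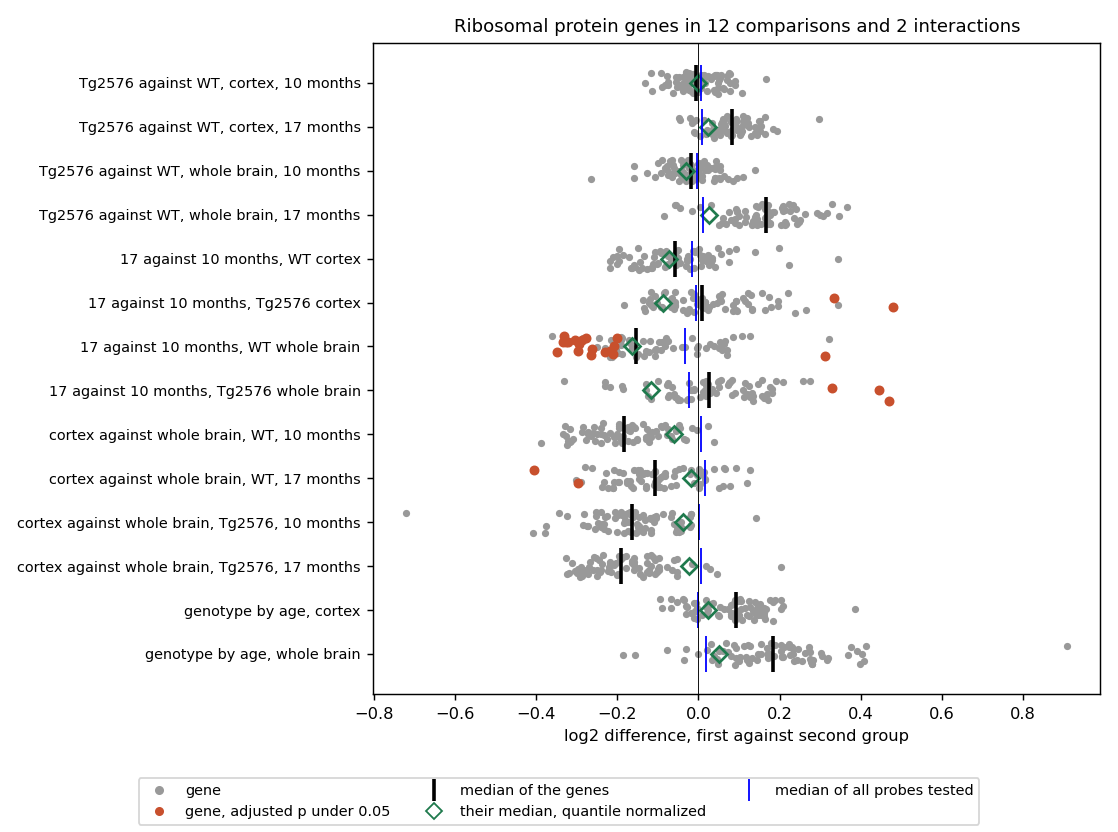
Log2 differences of the ribosomal protein genes (points, orange where limma's adjusted p was under 0.05) in each of 12 comparisons and 2 interactions, with their median (black bar), their median after quantile normalization (green diamond) and the median of all probes tested (blue bar). The black bar is at -0.15 for age in WT whole brain and the diamond at -0.16, whereas for Tg2576 against WT whole brain at 17 months they are at 0.17 and 0.03, and for age in Tg2576 cortex and Tg2576 whole brain the sign turns between them, as it does around 0 for the genotypes in 10-month-old cortex (-0.0052 and 0.00012).

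In the comparison of tissues most ribosomal protein genes had lower mean values in cortex than in whole brain, by an amount that depended on the scaling. At 10 months 75 of 77 genes were below 0 in WT mice (median -0.18) and 77 of 78 in Tg2576 mice (median -0.16). At 17 months 59 of 77 were below 0 in WT mice (median -0.11) and 73 of 77 in Tg2576 mice (median -0.19). Of all probes 51.2%, 50.1%, 52.4% and 51.3% were above 0 in these comparisons. After quantile normalization the medians shrank to -0.06, -0.04, -0.02 and -0.02 in the same order, and 56 of 77, 47 of 78, 41 of 77 and 45 of 77 genes were below 0.

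Few of these differences passed limma's adjusted threshold in the comparison of 6 arrays. It called 2 of 77 in 17-month-old WT mice (10.3% of 38018 probes in either direction), both lower in cortex, where 3.86% of all probes were called. In the other 3 comparisons it called 0, where 0.0101% of all probes were called in 10-month-old WT mice, 0% in 10-month-old Tg2576 mice and 1.97% in 17-month-old Tg2576 mice. At an unadjusted p under 0.05 these 3 had 43, 21 and 32 genes, all lower in cortex (11.8%, 9.92% and 7.88% of all probes in that direction), and the methods' t-test gave 54, 30 and 43. After quantile normalization 16, 8 and 6 genes had an unadjusted p under 0.05. The shares of all probes for these t-test and quantile counts are not given. The groups did not overlap, with cortex below whole brain, for 59 genes in 10-month-old WT mice, or 76.6%, against 16.6% of all probes, and for 57 in 17-month-old Tg2576 mice, or 74%, against 12.7%. This held for 39 in 10-month-old Tg2576 mice, or 50%, against 14.8%, and for 35 in 17-month-old WT mice, or 45.5%, against 17.8%. With all 24 arrays in 1 model, which pools the spread over the 8 groups, 21 genes were called in 10-month-old WT mice, 13 in 17-month-old WT mice, 20 in 10-month-old Tg2576 mice and 27 in 17-month-old Tg2576 mice, all lower in cortex, against 5.43%, 21.7%, 10.5% and 10.1% of all probes.

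Rps7, a small subunit protein that can bind Mdm2, was at 4.86, 4.92 and 4.98 in 17-month-old WT cortices and 5.31, 5.31 and 5.35 in whole brains of that group. The groups did not overlap, and the difference was -0.41 ± 0.07 (SE, limma adjusted p = 0.0256), or 1.32-fold. Rpl18, of the large subunit, was at 5.16, 5.21 and 5.13 in cortex and 5.44, 5.45 and 5.50 in whole brain, a difference of -0.30 ± 0.06 (SE, limma adjusted p = 0.0425). Only Rps7 was still called after quantile normalization. Without the WT cortex replicate 2, which had the high cerebellar markers, 0 were called, and the same held without each other array except WT cortex replicate 3, without which 1 was. With slide as a random block 0 were called.

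Where no gene passed, the 3 largest differences among those of separate groups with an unadjusted p under 0.05 are given. In 10-month-old WT mice they were Rps3 (-0.39 ± 0.08, SE), which also takes part in DNA repair, Rpl30 (-0.33 ± 0.08) and Rps27 (-0.33 ± 0.06), with limma adjusted p from 0.0803 to 0.101. In 10-month-old Tg2576 mice they were Rps21 (-0.41 ± 0.11), Rps19 (-0.38 ± 0.09), whose loss causes Diamond-Blackfan anaemia, and Rps7 (-0.38 ± 0.10), with limma adjusted p from 0.11 to 0.129. In 17-month-old Tg2576 mice they were Rps26 (-0.33 ± 0.07), Rps15 (-0.32 ± 0.09) and Rpl8 (-0.32 ± 0.07), with limma adjusted p from 0.0717 to 0.126. Tissue and slide cannot be told apart in 10-month-old WT mice and in 17-month-old Tg2576 mice. The cerebellar markers were lower in cortex by medians of -1.47, -1.66, -0.79 and -0.50 in 10- and 17-month-old WT and 10- and 17-month-old Tg2576 mice, with none called, and their part was not tested.

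Among the 77 genes detected on all arrays, the group means spread most for Rpl8 (range 0.58, from 6.69 in 10-month-old Tg2576 cortex to 7.27 in 17-month-old Tg2576 whole brain), Rplp2 (0.58) and Rps7 (0.55). Among those that spread least were Rpl6 (0.21) and Rpl10a (0.22). Rpl39l and Rpl10l, whose probes were rarely above background, had the widest ranges, the former 1.24.

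Rpsa, a small subunit protein that is also known as a laminin receptor, and Rps6 were not called in any comparison. Rpsa differed most between the genotypes in 17-month-old whole brain, at 7.21, 7.18 and 7.42 in WT and 7.54, 7.48 and 7.75 in Tg2576 mice (0.32 ± 0.11, SE, limma adjusted p = 0.355). Rps6 differed by -0.17 to 0.11 over the 12 comparisons, with limma adjusted p of 0.159 or more.

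Some paralogs are known for restricted expression. Rpl10l, a retrogene of Rpl10 known from testis, was well above background on 1 array and passed the filter in no comparison, so no difference is given. Rpl39l, likewise known from testis, was so on 7 arrays and passed only in the 4 tests that involve 10-month-old Tg2576 whole brains. Rpl3l, the muscle form of Rpl3, was measured on all 24 arrays between -4.41 and -3.70. It differed by -0.26 to 0.20 with SE of 0.09 to 0.19, and Rpl3 by -0.26 to 0.11. Rps27l, a p53-induced form of Rps27, was at 3.08 to 3.16 in 10-month-old whole brains and 2.80 to 3.01 in 17-month-old ones, without overlap between the ages over the 12 arrays. After quantile normalization it was called in both whole brain comparisons of age. In Tg2576 whole brain Rps27l differed by -0.23 ± 0.08 and Rps27 by 0.11 ± 0.09 with age.

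Ribosomal proteins outside the name rule were measured as a fixed list of 7, among them Fau, which is made as a fusion with a ubiquitin-like protein, Rack1, a scaffold on the small subunit, Rps3a1, Rpl36al, Rpl22l1 and Rpl7l1. With age in WT whole brain 4 of 7 were called (15.2% of all probes were called lower), all lower: Rpl22l1 by -0.34, Rps3a1 by -0.32, Rpl7l1 by -0.28 and Rack1 by -0.25 (limma adjusted p from 0.0138 to 0.0367). None of the 7 was called in any other comparison.

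The genes of a mixed list (17 elongation factors, initiation factors and others such as Npm1, Nap1l1 and Hnrnpa1) did not shift as a block. With age in WT whole brain their median was 0.01, with 3 called higher (Eif3f, Eef2 and Pabpc1) and 1 lower (Naca), against 27.8% of all probes called, beside -0.15 for the ribosomal protein genes. Eef2, which moves the ribosome along the mRNA, rose by 0.35 in WT whole brain, 0.43 in Tg2576 whole brain and 0.39 in Tg2576 cortex. Pabpc1, the poly(A)-binding protein, rose by 0.38 and 0.47 in WT and Tg2576 whole brain. Eif3f was called higher with age in all 4 comparisons, by 0.32 to 0.58, and Eif3e, of the same initiation complex, fell in both Tg2576 comparisons, by 0.34 in cortex and 0.50 in whole brain.

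Ribosome assembly genes (27) went both ways with age. In WT whole brain 6 were called higher, among them Rrs1 (0.51) and Bysl (0.47), and 4 lower, among them Ubtf (-0.54), the factor that opens rDNA to RNA polymerase I, and Polr1d (-0.42), against 27.8% of all probes called. In Tg2576 whole brain 3 were higher and 3 lower (12.1% of all probes called), in Tg2576 cortex 4 were higher (10.3%), and in WT cortex 0 passed limma's adjusted threshold.

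In the mTOR and S6 kinase list (13 genes) the age medians were 0.21 to 0.23 over the 4 comparisons under the 75th percentile scaling. The medians of all probes were -0.02, -0.01, -0.03 and -0.02 in WT cortex, Tg2576 cortex, WT whole brain and Tg2576 whole brain. Of all probes 4.56%, 10.3%, 27.8% and 12.1% were called, in the same order. Slide and age cannot be told apart in Tg2576 cortex and WT whole brain, for this list as for those above. Larp1, which binds the 5′ TOP motif and holds back translation of these mRNAs, was called higher at 17 months in all 4 comparisons, by 0.41 in WT cortex, 0.36 in Tg2576 cortex, 0.59 in WT whole brain and 0.56 in Tg2576 whole brain (limma adjusted p from 0.00516 to 0.0476). Eif4ebp2, the main form in brain of the eIF4E-binding proteins, rose in 3 of the 4, by 0.65 in Tg2576 cortex, 1.10 in WT whole brain and 0.88 in Tg2576 whole brain. Rps6kb1, an S6 kinase, fell by 0.31 and Rheb, the activator of mTOR, by 0.35 in WT whole brain. No gene of these 4 lists was called between the genotypes.

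**Figure D5:**
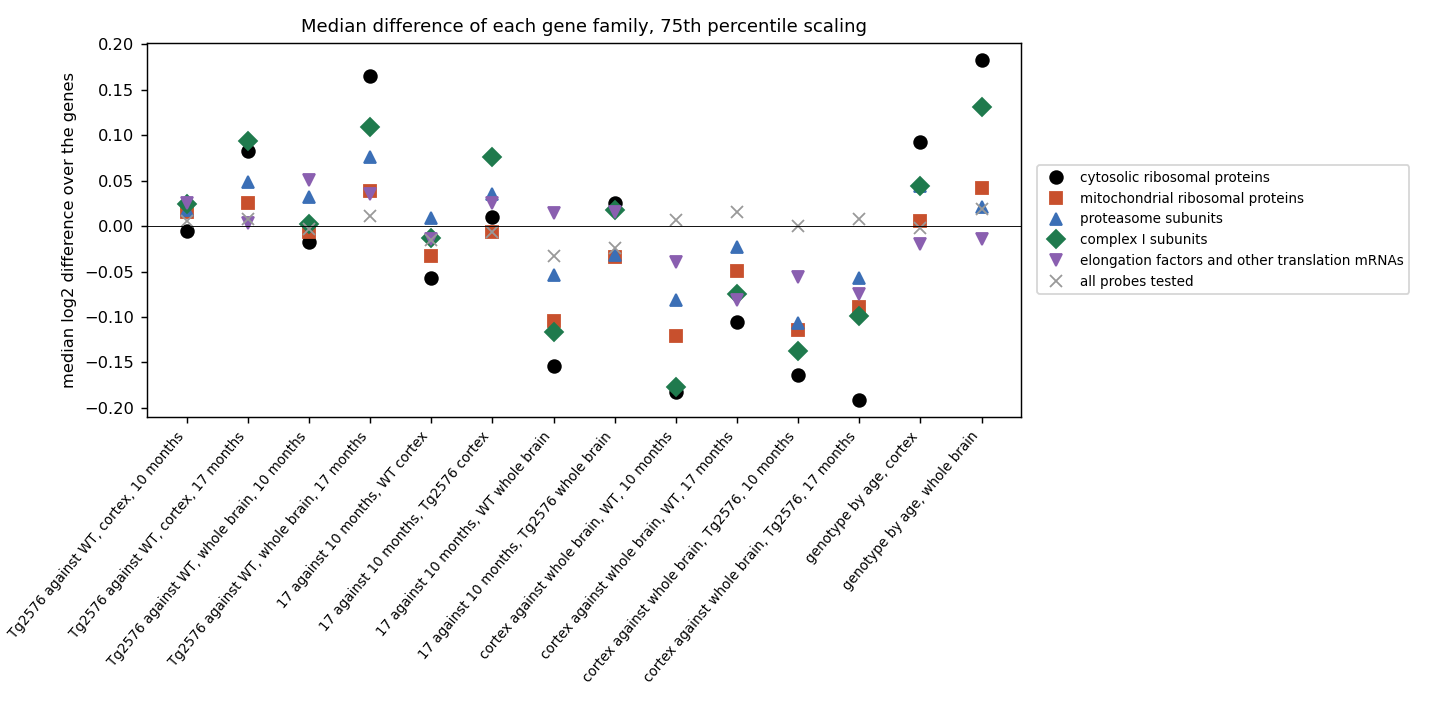
Median log2 difference over the genes of each family (symbols) in each of the 12 comparisons and 2 interactions under the 75th percentile scaling, beside the median of all probes tested (grey crosses). In the age comparison of WT whole brain the cytosolic ribosomal proteins are at -0.15, the mitochondrial ones at -0.10 and complex I at -0.12. The mixed list of elongation factors, initiation factors and other genes is at 0.01.

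Other families of housekeeping genes are given beside these values under the same scaling. With age in WT whole brain the median was -0.10 for 74 mitochondrial ribosomal protein genes (4 called higher, 13 lower), -0.12 for 36 complex I genes (2 higher, 6 lower) and -0.05 for 37 proteasome genes (4 higher, 3 lower). Of all probes 27.8% were called there, which is above the share called in each of these families. In 17-month-old Tg2576 against WT whole brain the medians were 0.04, 0.11 and 0.08, beside 0.17 for the cytosolic ribosomal protein genes. In cortex against whole brain of 10-month-old WT mice they were -0.12, -0.18 and -0.08, beside -0.18. None of these families was tested against another.

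The genes outside the rule whose values followed the mean of the 77 most closely over the 24 arrays were Rpl36al (r = 0.94), Sprr2a2 and Cabp5 (0.93), Mtres1 (0.93) and Shc4 (0.92), of 14510 genes compared, whose median r was 0.04. After quantile normalization, an alternative chosen after the values were seen, the list was Cox16 (0.95), Tmem208, 1810009A15Rik, Cox6b1 and Tm2d3 (0.93 each), and Cabp5 and Shc4 fell to 0.44 and 0.47. The closest genes therefore depended on the scaling.

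Of the 79 genes, 52 had several probes, and 50 of these had several that passed the filter in each comparison. Their log2 differences spread by a median of 0.06 to 0.15 over the 12 comparisons. All probes of a gene had the same sign for 45 of 50 genes with age in WT whole brain and for 25 of 50 in the comparison of genotypes in 10-month-old whole brain. Rplp2, Rps21, Rpl28, Rps4x, Rps7 and Rpl18, each called in a comparison, had 1 probe each and allow no such check. The widest disagreement was that of Rpl6 in 5 of the 12 comparisons, up to -0.85 against -0.03 with age in WT whole brain, where the probe used here gave -0.21. It was that of Rps15a in 10-month-old Tg2576 against WT cortex (-0.13 against 0.07) and with age in WT cortex (-0.40 against -0.06), and of Rps25 with age in Tg2576 whole brain (-0.60 against 0.02) and between the tissues of 17-month-old Tg2576 mice (-0.30 against 0.13). It was that of Rpl39 between the genotypes in 17-month-old cortex (-0.32 against 0.04), of Rpsa with age in Tg2576 cortex (-0.32 against 0.05) and of Rps3 between the tissues of 10-month-old WT mice (-0.39 against -0.03).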

How the data were processed

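The deposited files hold 1 array each, and per the file headers the authors' scanner files give the spot intensity after background subtraction by Agilent Feature Extraction 10.7.3.1. The authors' table holds log2 values, which lay within 0.01 of log2 intensity minus a constant near the array's 75th percentile for at least 99.8% of probes. From the intensities, non-control spots of a probe that were not outliers were averaged, log2 was taken and each array's 75th percentile over all probes was subtracted. Symbols came from RefSeq transcripts (GRCm38.p6). Tests used the probes that in 2 or 3 arrays of either group stood well above background and had a value on every array. Groups were compared with limma 3.58.1 (lmFit and eBayes, R 4.3.3), 6 arrays per comparison and 12 per interaction, with Benjamini-Hochberg adjustment at 0.05 over all probes tested. The fits of 2 comparisons were also run on simulated arrays. Their probes were drawn independently, so effects shared by the probes of an array were not covered. The methods' t-test served as an alternative, at an unadjusted 0.05 and after adjustment. Shares of all probes are not given for its counts, so they are not set against a background. The fixed lists and the ribosomal protein genes were chosen with earlier results of these data known. Named genes were those with the 3 largest rises and falls among calls without overlap (else at an unadjusted p under 0.05), the stalk genes, Rpsa, Rps6, the paralogs, the widest and narrowest ranges of group means, and the widest probe disagreement. The 3 arrays per group limit the precision, and p-values measure the spread between these samples. Same-numbered arrays did not deviate together throughout, so numbers were not taken to pair samples. The miRNA arrays were not used here. The values of some single genes are not reported here.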

Additional observations from a re-analysis of the deposited data

How the results depend on the processing

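With all 24 arrays in 1 model, 9, 7, 36 and 13 ribosomal protein genes were called with age in WT cortex, Tg2576 cortex, WT whole brain and Tg2576 whole brain (15.3%, 19.1%, 31.3% and 26.8% of all probes), and 21, 13, 20 and 27 between the tissues of 10-month-old WT, 17-month-old WT, 10-month-old Tg2576 and 17-month-old Tg2576 mice. Quantile normalization gave 0, 31 and 4 with age in Tg2576 cortex, WT whole brain and Tg2576 whole brain and 1 between the tissues of 17-month-old WT mice. Normexp on the raw signal gave 1, 3, 24 and 6 with age in WT cortex, Tg2576 cortex, WT whole brain and Tg2576 whole brain, of which 1 of 2 (Rps21, not Rplp2), 15 of 19 and 3 of 3 calls of the 75th percentile scaling were shared in the last 3, and 14, 1, 2 and 5 between the tissues in the order above. With no filter on dim probes the counts were 0 and 2 with age in Tg2576 cortex and WT whole brain, and 0 and 1 between the tissues of 17-month-old WT and Tg2576 mice. The mean over all probes of a gene left 1 in Tg2576 whole brain with age. The slide left 0 there as a fixed block and 0 between the tissues of 17-month-old WT mice as a random block. The methods' t-test at an unadjusted 0.05 gave 2, 12, 3 and 38 between the genotypes (10- and 17-month-old cortex, then whole brain), 20, 16, 39 and 17 with age and 54, 24, 30 and 43 between the tissues, and after adjustment 1 with age in Tg2576 cortex and 4 between the tissues of 17-month-old WT mice. The cause of these changes was not tested. Shares of all probes are not given for the counts from normexp, from no filter, from the mean over probes and from the t-test. Leaving out each replicate in turn gave 0 with age in Tg2576 cortex, 2 to 12 in WT whole brain and 0 to 1 in Tg2576 whole brain, and 0 to 1 and 0 to 2 between the tissues of 17-month-old WT and 10-month-old Tg2576 mice. With the replicate number as a block 0 genes were called in every comparison. In no comparison were all 3 correlations of same-numbered arrays above 0.1. Between the tissues of 17-month-old Tg2576 mice they were 0.04, 0.12 and 0.14, each above the highest with another number (0.0039 or less). Whether same-numbered arrays pair in that comparison is therefore not settled. The slide could not be fitted as a block in 6 comparisons. Among these, the genotype comparisons in 10-month-old cortex and in 17-month-old whole brain each lay on 1 slide. In the others of these, slide and group cannot be told apart. Array number and brightness limit what can be seen for Rpl39l and Rpl10l.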
